A study of Mus musculus with 6 samples.

Results

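The NRF2 antioxidant response was examined here through 10 genes: the transcription factor gene Nfe2l2, which encodes NRF2, its inhibitor gene Keap1, and 8 genes known as NRF2 targets. They were taken by gene symbol from the array annotation, wherever it gave exactly 1 symbol to a feature. All 10 genes had a value, on 17 of the 41230 features with values, and they made up 10 of the 19087 genes with a symbol. Of the 10 genes, 6 had 1 feature, 1 had 2 features and 3 had 3 features. Mouse MMH cells (Met murine hepatocytes), which the series title calls hepatoblasts and the sample titles mark ED14, were labelled MMH-Prox1, for the transcription factor gene Prox1, or MMH-pCDNA3.1, for an expression vector, taken here as the control. The labels do not say how Prox1 was introduced or whether each group was a pool or 1 clone. Each of 6 arrays compared both RNAs in 2 colours, with Prox1 RNA in Cy5 on replicates 1, 2 and 3 (the Cy5 arrays) and in Cy3 on replicates 4, 5 and 6.

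The deposited value is a signed ratio score, and each array has a standard deviation (SD) of 1. It gives no fold change and no expression level. Replicates 4, 5 and 6 held identical values, with 0 features apart, and were counted as 1 sample (the Cy3 profile), which left 4 distinct profiles. Positive scores likely mean higher with Prox1. This rests on 1 Prox1 feature, the fourth highest of all, at 5.17 to 5.44 on the Cy5 arrays and 6.60 in the Cy3 profile, although the other features of that gene stood between −0.38 and 0.55. Profiles correlated over features at r = 0.915 to 0.930 among the 3 Cy5 arrays and at r = 0.397 to 0.444 between the dye orientations. The test used throughout was therefore limma (two-sided, Benjamini-Hochberg adjustment over 28617 genes and unassigned features, threshold 0.05) with the orientation as a random block. Its error allows for the difference between orientations through 1 correlation shared by all genes (0.793). There are only 2 orientations, 1 of them a single profile, so genes whose orientations differ more may get too small an error. With the orientations as 2 replicates 0 of everything tested passed. A model with a dye term takes its error only from the 3 Cy5 arrays, and its calls are given beside the others. The design text speaks of a dye swap of 2 samples, and nothing in the labels names separate cultures, so the p-values reflect variation between arrays that may be purely technical, and the number of arrays limits the precision.

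NRF2 is a transcription factor that is held in the cytoplasm by KEAP1, an adaptor that delivers it to a ubiquitin ligase for degradation. Electrophiles and oxidants modify cysteines of KEAP1, NRF2 then accumulates, pairs with small MAF proteins and binds the antioxidant response element in front of its target genes. The targets make glutathione, keep thioredoxin and peroxiredoxin reduced, and detoxify quinones and haem, and in liver they protect hepatocytes against drugs and oxidative injury.

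The antioxidant response element was searched for in the RefSeq promoter windows of the 10 genes (250 bases before to 50 after the start, build GRCm38.p6), because NRF2 is known to act through it. Both strands were searched for TGACNNNGC and TGAGNNNGC, which did not overlap each other in these windows. Windows were at hand for 7 genes, and those for Gclc, Gsr and Hmox1 were not used here. The 7 genes had 9 windows, of which 5, each of another gene, held a match to either motif, against 27.8% of all 32851 windows (12.4% for TGACNNNGC and 17.6% for TGAGNNNGC). The windows with a match are printed 5′ to 3′ on the strand of the gene, with the matches in capitals, so that a match on the opposite strand appears as its reverse complement. They are Gclm at chr3:122245307-122245606 (plus strand), Nfe2l2 at chr2:75704614-75704913 (minus strand), Prdx1 at chr4:116685349-116685648 (plus strand), Srxn1 at chr2:152105274-152105573 (plus strand), and the window of 1 of the 3 listed starts of Txnrd1 at chr10:82858956-82859255 (plus strand).
Gclm: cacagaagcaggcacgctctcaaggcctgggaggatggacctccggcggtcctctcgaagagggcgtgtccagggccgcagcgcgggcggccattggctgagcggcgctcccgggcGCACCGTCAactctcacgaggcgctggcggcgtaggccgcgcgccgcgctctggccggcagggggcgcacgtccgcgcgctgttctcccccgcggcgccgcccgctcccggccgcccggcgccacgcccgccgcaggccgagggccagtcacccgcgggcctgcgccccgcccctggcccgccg
Nfe2l2: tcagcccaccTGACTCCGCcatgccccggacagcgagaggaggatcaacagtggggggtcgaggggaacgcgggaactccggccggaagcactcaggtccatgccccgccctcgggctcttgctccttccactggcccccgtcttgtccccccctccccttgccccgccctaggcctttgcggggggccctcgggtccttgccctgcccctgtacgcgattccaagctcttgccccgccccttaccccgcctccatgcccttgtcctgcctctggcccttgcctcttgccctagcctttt
Prdx1: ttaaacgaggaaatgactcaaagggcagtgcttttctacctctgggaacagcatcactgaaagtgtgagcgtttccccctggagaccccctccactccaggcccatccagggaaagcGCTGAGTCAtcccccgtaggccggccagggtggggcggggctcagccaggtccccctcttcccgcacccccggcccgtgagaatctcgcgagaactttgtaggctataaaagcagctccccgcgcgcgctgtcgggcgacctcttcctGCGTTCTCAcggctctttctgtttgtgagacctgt
Srxn1: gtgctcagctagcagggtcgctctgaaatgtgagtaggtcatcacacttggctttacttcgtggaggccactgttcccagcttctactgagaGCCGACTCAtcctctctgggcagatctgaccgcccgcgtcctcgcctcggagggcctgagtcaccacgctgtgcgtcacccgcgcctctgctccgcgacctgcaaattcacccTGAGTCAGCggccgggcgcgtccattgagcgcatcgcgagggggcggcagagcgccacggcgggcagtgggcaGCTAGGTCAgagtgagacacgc
Txnrd1: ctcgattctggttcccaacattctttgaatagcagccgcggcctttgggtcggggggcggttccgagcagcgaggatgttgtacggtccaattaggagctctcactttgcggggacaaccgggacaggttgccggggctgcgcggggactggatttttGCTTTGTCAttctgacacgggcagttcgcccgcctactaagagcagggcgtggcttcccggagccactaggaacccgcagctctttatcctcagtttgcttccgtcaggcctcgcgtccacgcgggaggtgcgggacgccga
Srxn1 had 3 matches, of which TGAGTCAGC on the strand of the gene, 45 to 37 bases before the start, was the nearest upstream match of all. Prdx1 had 2, TGACTCAGC on the opposite strand from 133 bases before the start and TGAGAACGC downstream of it. Gclm, Txnrd1 and Nfe2l2 had 1 each, beginning 134, 92 and 240 bases before the start. The windows of Keap1 and Nqo1 and the other windows of Txnrd1 held none of these letters. A match describes the sequence and not binding. Matches more than 250 bases before the start were not searched for, so a window without a match does not mean that the gene lacks the element.

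NRF2 target genes went both ways with Prox1. Nqo1, Gclc and Gsr fell, Txnrd1 rose, and the other 6 genes did not pass. These 3 falls and 1 rise stand beside 5.03% of everything tested called lower and 3.38% called higher, 8.41% in all. The 10 genes were chosen with earlier results of these data known, so such counts are a description and not an independent test. Tested singly, 3 of the 17 features fell and 1 rose, where 4.58% and 3.08% of all features did so (7.66% in all). The median effect of the 10 genes was −0.49 SD units, against 0.04 over everything tested, and their median absolute effect was 1.18 against 0.25. Over the profiles the median score of the 10 genes was −0.55, −0.36 and −0.50 for replicates 1 to 3 and −0.30 in the Cy3 profile, so all of these medians lay below 0. The genes themselves were split, with 6, 5 and 6 of the 10 negative on replicates 1 to 3 and 6 in the Cy3 profile. A single sign held across the 4 profiles for 8 genes, 5 of them negative and 3 positive. The same held for 41.8% of everything tested. In the model with a dye term 6 genes were called lower and 3 higher, where 19.7% and 25.3% of everything tested were called in these directions.

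**Figure D1:**
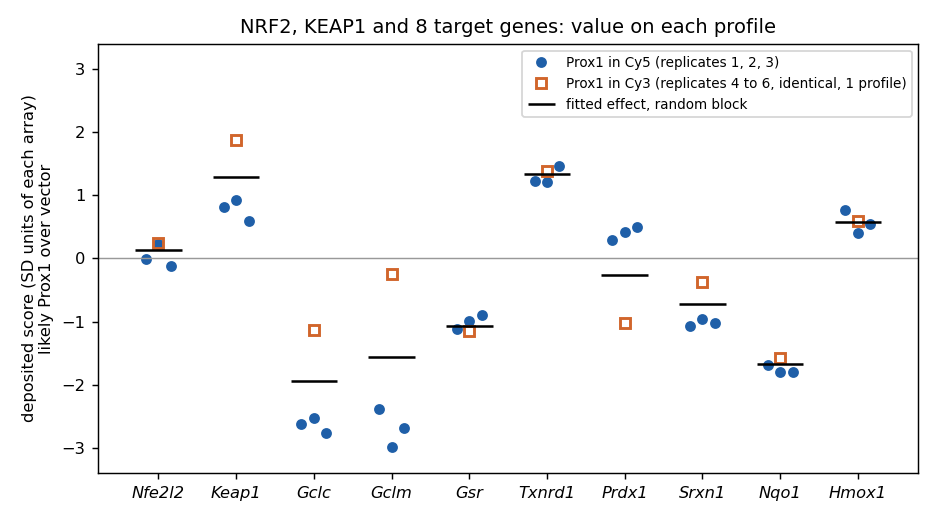
Deposited score (y axis, SD units of each array, likely Prox1 over vector) of the 10 NRF2 genes, with features averaged per gene: filled circles are the 3 Cy5 arrays, open squares the Cy3 profile, and black lines the fitted effect. Nqo1, Gsr and Txnrd1 keep their 4 values close together, whereas Gclc, Gclm, Keap1 and Prdx1 show a gap between circles and square.

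Of the regulators, neither Nfe2l2 nor Keap1 passed. Keap1, the inhibitor, scored 0.82, 0.92 and 0.59 on replicates 1 to 3 and 1.88 in the Cy3 profile. All 4 values were above 0, and the effect of 1.29 ± 0.32 SD units (SE, 4 profiles) had a limma adjusted p of 0.067. In the model with a dye term Keap1 passed as higher (adjusted p = 0.00020).

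Nfe2l2 stood near 0 as a gene mean, with scores of −0.02, 0.23, −0.11 and 0.25 and an effect of 0.13 ± 0.24 SD units (adjusted p = 0.94). This mean joined features that disagreed. Feature 34396, annotated to a RefSeq mRNA, scored −0.35, −0.57 and −0.55 on replicates 1 to 3 and −0.51 in the Cy3 profile. Feature 37139, also annotated to a RefSeq mRNA, scored −0.80, −0.45, −0.92 and −0.63. Feature 37665, annotated to a GenBank cDNA, scored 1.09, 1.71, 1.13 and 1.88. Each of the 3 features thus kept 1 sign over all profiles, and the cDNA feature lay on the other side of 0 from both mRNA features. Their effects were −0.50 ± 0.23, −0.68 ± 0.29 and 1.57 ± 0.38 (adjusted p = 0.31, 0.28 and 0.062 over all features). In the model with a dye term all of them passed, both mRNA features as lower and the cDNA feature as higher (adjusted p = 0.0055, 0.0047 and 0.00037). With the median of the features in place of the mean, the gene's effect turned to −0.48 (adjusted p = 0.26). No direction can therefore be given for Nfe2l2.

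Glutathione synthesis and recycling gave 2 of the 3 falls, Gclc and Gsr. Gclc, the catalytic subunit of glutamate-cysteine ligase, the rate-limiting enzyme of glutathione synthesis, scored −2.62, −2.54 and −2.77 on replicates 1 to 3 and −1.14 in the Cy3 profile. All profiles were well below 0. Its effect of −1.95 ± 0.37 SD units (limma adjusted p = 0.029) was rank 663 from the lowest of 28617. Gclm, the modifier subunit of the same enzyme, scored −2.39, −2.99 and −2.69, but only −0.24 in the Cy3 profile. Its effect of −1.56 ± 0.59 did not pass (adjusted p = 0.20), although a dye term in place of the block gave a call of lower (adjusted p = 0.00045). For both subunits the Cy3 profile was the nearest to 0.

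Gsr, glutathione reductase, which regenerates glutathione with NADPH, scored −1.12, −0.99, −0.90 and −1.15 as a gene mean. It fell, and the effect was −1.07 ± 0.21 SD units (adjusted p = 0.031). All 3 of its features were negative in all 4 profiles, and 1 of them passed singly. That was feature 11446, at −1.96, −1.76, −1.85 and −1.30 (effect −1.60 ± 0.25, adjusted p = 0.016). Feature 38067 scored −0.85, −0.60, −0.44 and −1.42. These features differed between the orientations in opposite directions, 11446 by −0.55 and 38067 by 0.79 (the Cy5 arrays minus the Cy3 profile, limma dye term, adjusted p = 0.048 and 0.031), which cancelled in the gene mean. Features 38067 and 8301 had effects of −0.998 ± 0.32 and −0.62 ± 0.23 (adjusted p = 0.13 and 0.19). With the median of the features Gsr did not pass (adjusted p = 0.11). Gclc and Gsr also lost their calls when any 1 of replicates 1, 2 and 3 was left out: the adjusted p was then 0.077, 0.075 and 0.075 for Gclc, and 0.075, 0.077 and 0.066 for Gsr.

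In the thioredoxin branch Txnrd1 rose while Srxn1 and Prdx1 did not pass. Txnrd1, the cytosolic thioredoxin reductase, a selenoprotein, scored 1.22, 1.22 and 1.47 on replicates 1 to 3 and 1.38 in the Cy3 profile. The orientations overlapped, and the effect was 1.34 ± 0.22 SD units (limma adjusted p = 0.020), rank 782 from the highest. Without replicate 1 the adjusted p was 0.052.

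Srxn1, sulfiredoxin, which restores overoxidised peroxiredoxins, scored −1.08, −0.96 and −1.02 on replicates 1 to 3 and −0.37 in the Cy3 profile. Its effect of −0.72 ± 0.23 SD units did not pass (adjusted p = 0.14). Of its 3 features, 1490 and 12463 lay between −1.74 and −1.47 on the Cy5 arrays and at −0.21 and −0.28 in the Cy3 profile. Feature 31944 stood apart, at 0.22, 0.24 and 0.18 on the Cy5 arrays and −0.62 in the Cy3 profile. All 3 are annotated to a RefSeq mRNA.

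Prdx1, a peroxiredoxin that reduces hydrogen peroxide, had opposite signs in the orientations, with scores of 0.29, 0.42 and 0.49 on replicates 1 to 3 and −1.03 in the Cy3 profile. Its effect was −0.26 ± 0.35 SD units (adjusted p = 0.88). The mRNA feature 521 was negative in every profile (−0.67, −0.34, −0.31 and −1.16), whereas the cDNA feature 6409 scored 1.24, 1.18 and 1.29 on the Cy5 arrays and −0.89 in the Cy3 profile. The sign of the Prdx1 mean therefore depended on the weight of each orientation: it was 0.40 when only the Cy5 arrays were fitted (adjusted p = 0.0069) and −0.31 in the model with a dye term (adjusted p = 0.023).

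**Figure D2:**
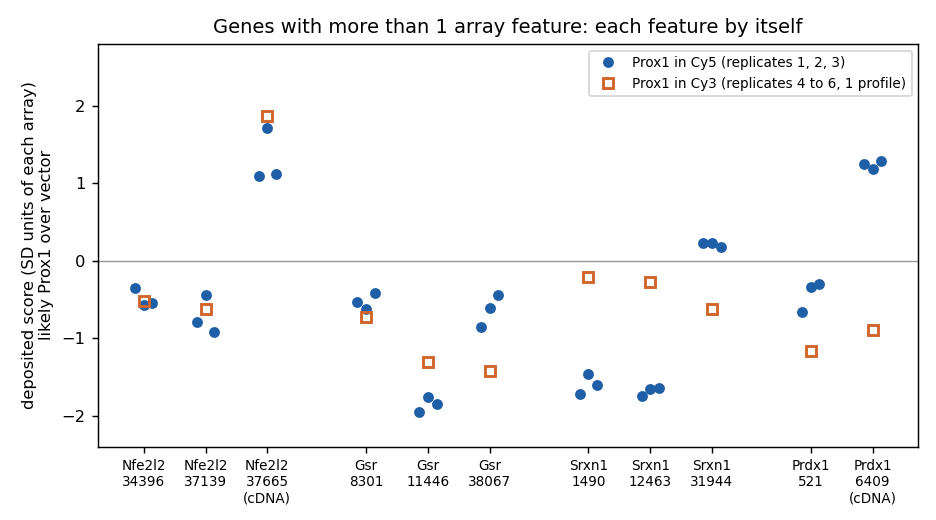
Deposited score (y axis, SD units of each array) of each array feature of the 4 genes with more than 1 feature, on the 3 Cy5 arrays (filled circles) and in the Cy3 profile (open squares); the number under each gene is its feature, and cDNA marks features annotated to a GenBank cDNA. The cDNA feature of Nfe2l2 lies at 1.09 to 1.88 while both other features of the gene lie below 0.

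Of the detoxifying enzymes, Nqo1 fell and Hmox1 did not pass. Nqo1, the NAD(P)H quinone oxidoreductase that is often used as a readout of NRF2 activity, scored −1.68, −1.81 and −1.80 on replicates 1 to 3 and −1.57 in the Cy3 profile. All 4 values lay close together. Its effect of −1.67 ± 0.20 SD units had the smallest adjusted p of the 10 genes (0.0063) and was rank 883 from the lowest. Nqo1 also passed without replicate 1, 2 or 3 (adjusted p = 0.025, 0.026 and 0.028).

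Hmox1, the inducible haem oxygenase, which opens the haem ring to biliverdin, iron and carbon monoxide, was above 0 in every profile, at 0.78, 0.40, 0.55 and 0.59. Its effect of 0.59 ± 0.24 SD units did not pass (adjusted p = 0.25), whereas the model with a dye term called it higher (adjusted p = 0.0048). Nqo1 and Hmox1 had 1 feature each, so no other feature can be set beside them. This also holds for Keap1, Gclc, Gclm and Txnrd1, so of the genes that passed only Gsr had more than 1 feature.

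Genes with the most similar scores were sought by Euclidean distance over the 4 profiles among 19086 other genes. Nearest to Nqo1 were the sulfotransferase gene Sult1a1 at a distance of 0.081, Pqbp1 at 0.13 and Sh3bgrl at 0.15. Sult1a1 scored −1.62, −1.79, −1.81 and −1.62. Nearest to the Nfe2l2 mean were 8430419K02Rik (0.060), 1700069P05Rik (0.064) and Piga (0.065), all of them, like that mean, near 0. With 4 profiles, 3 of them of 1 orientation, such likeness describes these values only.

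The difference between the orientations passed for 5 of the 10 genes (limma dye term), against 39.1% of everything tested, and for 10 of the 17 features, against 40.7% of all features. On the Cy5 arrays the score was lower than in the Cy3 profile for Gclm, Gclc, Keap1 and Srxn1 and higher for Prdx1. Nqo1, Gsr, Txnrd1, Hmox1 and Nfe2l2 did not pass this test as gene means. Over everything tested the difference had an SD of 0.984 SD units, and the median SD among the 3 Cy5 arrays was 0.139. A dye effect cannot be told apart from any other difference between the orientations, such as the other RNA reagent stated for replicate 4.

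**Figure D3:**
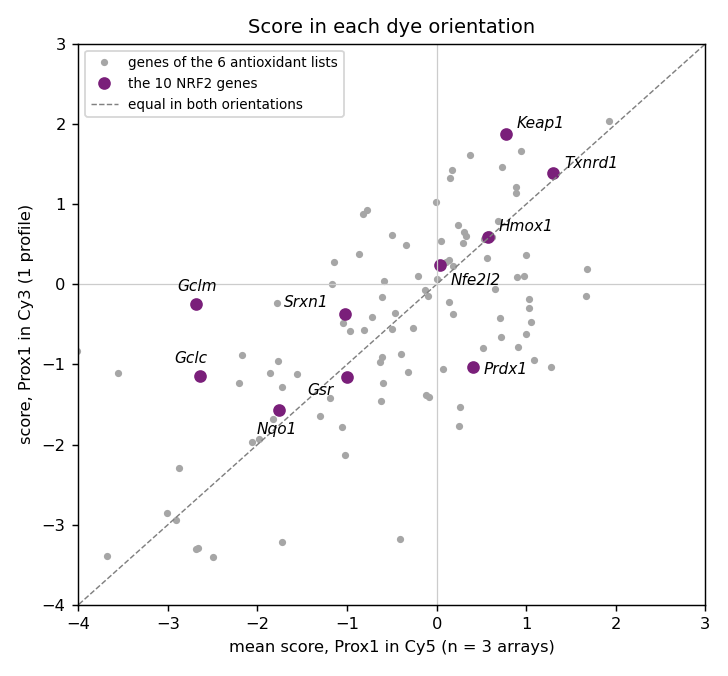
Score in the Cy3 profile (y axis) against the mean score on the Cy5 arrays (x axis, 3 arrays), both in SD units, for the 10 NRF2 genes (large labelled points) and the 102 measured genes of 6 antioxidant lists (small points), of which 7 lie below the axis range of −4. Nqo1, Gsr, Txnrd1 and Hmox1 lie near the dashed line of equal scores, Gclm and Gclc far to its left and Prdx1 to its right.

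The rest of the antioxidant system was described with 6 lists, of whose 109 genes 102 were measured. The lists were chosen with earlier results of these data known, so their counts are a description and not an independent test. Of these 25 fell and 3 rose, beside the 5.03% and 3.38% of everything tested given above, and the median effect was −0.40 SD units. Of these calls, 19 falls and 1 rise also passed without each of replicates 1, 2 and 3, and 5 falls and 2 rises passed in none of these fits. Among the latter were Mafk, Slc3a2, Gpx4, Glrx2, Cat and Aldh7a1, whose adjusted p rose to at most 0.11, 0.093, 0.093, 0.066, 0.076 and 0.094. With a dye term in place of the block 52 were lower and 27 higher, where the shares over everything tested were 19.7% and 25.3%, so the count of higher genes was near the background. Among 16 measured regulators and partners of NRF2 only 1 passed, which is not above the 8.41% called over everything tested. This was Mafk, a small MAF partner, with a rise of 1.07 ± 0.24 (limma adjusted p = 0.048). Its scores were 0.76, 0.76 and 0.67 on replicates 1 to 3 and 1.46 in the Cy3 profile. The next smallest p-values belonged to the coactivator Crebbp (effect −0.75 ± 0.19, adjusted p = 0.073) and to Dpp3 and Sqstm1, whose products bind KEAP1 (−0.79 ± 0.25 and −0.69 ± 0.34, adjusted p = 0.12 and 0.34). The list median was −0.10.

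The list of glutathione synthesis and use, with 21 measured genes, held 4 falls and 0 rises, although its median was 0.15 SD units. Gss, glutathione synthetase, which completes the synthesis that the ligase begins, scored −1.97, −1.95, −2.03 and −1.93 (effect −1.96 ± 0.19, limma adjusted p = 0.0032). Its profiles were nearly equal. The other falls were Slc3a2, a heavy chain of amino acid exchangers, among them that of cystine and glutamate (−1.53 ± 0.31, adjusted p = 0.035), Gpx4, which reduces lipid peroxides (−1.51 ± 0.31, adjusted p = 0.037), and the mitochondrial glutaredoxin Glrx2 (−1.39 ± 0.24, adjusted p = 0.022). Slc7a11, the light chain of the cystine exchanger, is added here after its values were seen. It did not pass (−1.35 ± 0.56, adjusted p = 0.24), whereas the model with a dye term called it lower (adjusted p = 0.0054).

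In thioredoxin, peroxiredoxin and superoxide defence (19 genes measured) there were 4 falls and 1 rise, and the median was −0.30 SD units. Txn2, the mitochondrial thioredoxin, rose by 1.97 ± 0.23 (limma adjusted p = 0.0060), with scores of 1.74, 2.03, 1.99 and 2.03. Txnip, whose product binds and inhibits thioredoxin, had the largest fall of this list (−7.50 ± 0.23, adjusted p = 0.00026). Catalase (Cat) and the methionine sulfoxide reductase gene Msrb2 fell with effects of −1.76 ± 0.33 and −1.46 ± 0.21 (adjusted p = 0.029 and 0.012).

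Enzymes that supply NADPH, on which both glutathione and thioredoxin reductases depend, gave 4 falls and 0 rises among 11 measured genes, with a median of −0.42 SD units. These were the cytosolic and mitochondrial isocitrate dehydrogenases Idh1 (−4.50 ± 0.21) and Idh2 (−3.55 ± 0.21), the malic enzyme Me1 (−2.60 ± 0.22) and Pgd of the pentose phosphate pathway (−1.76 ± 0.20), with limma adjusted p-values of 0.00050, 0.00082, 0.0023 and 0.0054. Idh1 scored −4.77, −4.69, −4.68 and −4.26, so all its profiles were far below 0. Of 10 genes of haem breakdown and iron storage 1 fell, the iron exporter gene Slc40a1 (−1.52 ± 0.26, adjusted p = 0.022, and 0.060 without replicate 1 and 0.053 without replicate 2), and 0 rose. With 8.41% of everything tested called in either direction, this count was near the background. Hmox2, the constitutive haem oxygenase, stood at 1.01 ± 0.29, the ferritin light chain gene Ftl1 at 0.95 ± 0.32 and the biliverdin reductase gene Blvrb at −0.89 ± 0.25 (adjusted p = 0.10, 0.16 and 0.089).

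The list with the most falls was that of NRF2-inducible conjugating and carbonyl-reducing enzymes. It had 25 measured genes, 12 falls and 1 rise, and its median was −1.07 SD units. The glutathione transferases Gsta2 (−5.75 ± 0.25), Gsta1 (−5.06 ± 0.41) and Gsta4 (−4.58 ± 0.32) and the carbonyl reductase Cbr3 (−2.95 ± 0.23) had limma adjusted p-values of 0.00045, 0.0020, 0.0012 and 0.0017. Gsta1 and Gsta2 are close paralogues, and array features of such genes may share signal. In the same profiles 3 of 9 hepatoblast and hepatocyte markers fell, Hnf4a at −2.96 ± 0.19, albumin (Alb) at −5.17 ± 0.54 and the keratin gene Krt8 at −3.55 ± 0.42, and 0 rose. Over everything tested 5.03% fell and 3.38% rose. Of the 9 effects 7 were negative. Those of Afp and Dlk1 were positive (0.33 ± 0.28 and 0.42 ± 0.36, limma adjusted p = 0.69 and 0.71). Both scored above 0 on the Cy5 arrays and below 0 in the Cy3 profile. The part of these marker changes in the falls of the antioxidant genes was not tested. The markers of macrophages (3 of 5 measured), of stellate cells and fibroblasts (6) and of endothelial cells (5) had 0 calls, with median effects of −0.05, 0.01 and 0.04. Among them the stellate cell marker Des was negative in every profile, at −1.30 ± 0.32 (adjusted p = 0.067, and 0.00025 with a dye term). With a dye term 2 stellate and fibroblast markers were lower and 1 higher, and the macrophage and endothelial markers had 0 calls. In that model 7 hepatoblast and hepatocyte markers were lower and 2, Afp and Dlk1, higher, where 19.7% and 25.3% of everything tested were called. Since the scores hold no levels, presence or absence of any marker cannot be read from them.

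**Figure D4:**
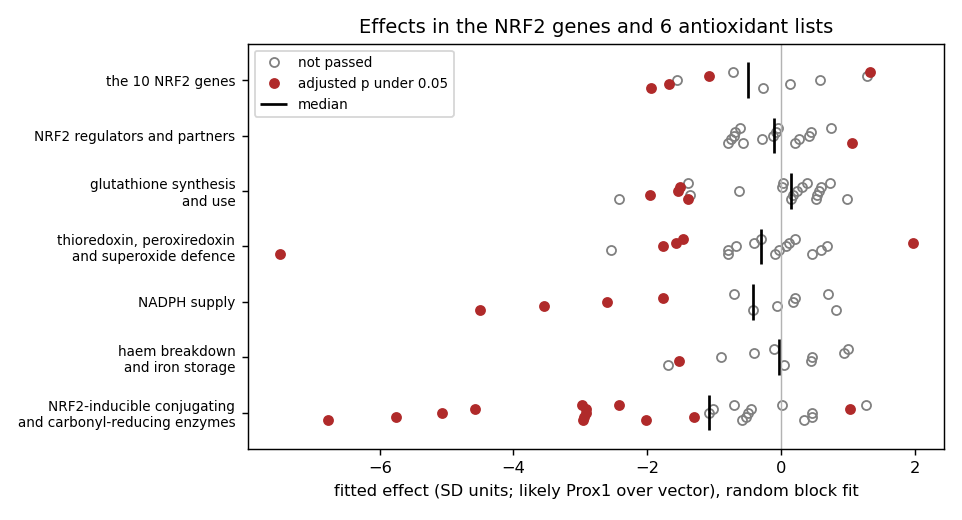
Fitted effect (x axis, SD units, likely Prox1 over vector) of every measured gene of the 10 NRF2 genes and of 6 antioxidant lists, with filled points for genes past an adjusted p of 0.05 and a black bar at each list's median. Filled points lie mainly left of 0, and those right of 0 are Txnrd1, Mafk, Txn2 and Aldh7a1.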

How the data were processed

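Arrays in 2 colours compared MMH-Prox1 with MMH-pCDNA3.1 RNA on 6 arrays. Per the labels' protocols, RNA was reverse transcribed and its cDNA amplified by monitored PCR before dye labelling, which can compress ratios. RNA came from a column kit, for replicate 4 from a phenol-based reagent. The authors deposited 1 score per feature and array, a signed ratio with an SD of 1 in every column. The scanner, background correction, normalization, log base and build were not given in the sources used here, so signal over background is unknown. Values were used as deposited (column medians −0.02 to 0.06). Of 44290 features 3060 had no value. Symbols of the platform annotation were updated by gene identifier. Gene values are means over the features that carry exactly 1 symbol, and all other features stayed single.

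Fits used limma 3.58.1 in R 4.3.3 with dye orientation as random block, whose consensus correlation from duplicateCorrelation was 0.793 for genes and 0.796 for features. A simulation checked that the fits returned planted effects on average. It planted a smaller spread between the orientations than these data show, so it gives no error rate for the calls here. Leave-one-out fits kept that correlation, since 3 profiles are too few to estimate it. Alternatives were a dye term, neither term, only the Cy5 arrays, the orientations as 2 replicates, median centring, quantile normalization and the median of features.

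The members, the 6 lists and the markers were chosen with earlier results of these data known. From each list up to 4 genes with the smallest p are named, and for Nfe2l2 and Nqo1 the 3 genes nearest in score. Each array compared both RNAs, and the fits used this ratio within the array. The labels give the dye orientations no shared replicate numbers, so arrays of different orientations were not paired with each other.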

Additional observations from a re-analysis of the deposited data

Results flagged for a closer look

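In 5 of the 10 genes the score differed between the dye orientations by limma's test of the dye term, which takes its error from the 3 Cy5 arrays and treats the lone profile as if it varied like them. The difference, the Cy5 arrays minus the Cy3 profile, was −2.45 ± 0.25 SD units (SE) for Gclm (adjusted p = 0.0023), −1.50 ± 0.16 for Gclc (adjusted p = 0.0025) and −1.10 ± 0.18 for Keap1 (adjusted p = 0.0077). It was −0.65 ± 0.14 for Srxn1 (adjusted p = 0.019) and 1.43 ± 0.16 for Prdx1 (adjusted p = 0.0025). Prdx1 was positive on all 3 Cy5 arrays and negative in the Cy3 profile. Such differences passed for 39.1% of everything tested.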

How the results depend on the processing

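Centring on medians and quantile normalization changed no call of the 10 genes. A dye term in place of the random block raised the calls of the 10 genes to 3 higher and 6 lower, of their features to 4 and 11, of the 102 list genes to 27 and 52 and of everything tested from 967 and 1439 to 7232 and 5647. With neither term these were 3 and 5 for the 10 genes, 13 and 40 for the lists and 3423 and 3446 for everything, and with only the Cy5 arrays 4 and 5, 31 and 51, and 9909 and 6872. With the orientations as 2 replicates 0 passed in limma in each, with 5 of the 10 genes, 39 of the list genes and 3975 of everything tested at an unadjusted p under 0.05. In that fit the adjusted p was 0.15 for Nqo1, 0.18 for Txnrd1, 0.22 for Gsr and 0.25 for Gclc. Without replicate 1, 2 or 3 in turn, fits with fewer samples, the 10 genes gave 0 to 1 higher and 1 to 1 lower, the lists 1 to 1 higher and 19 to 20 lower, and everything 385 to 453 higher and 845 to 935 lower. The median of features moved the median effect of the 10 genes from −0.49 to −0.71 and turned Nfe2l2 from 0.13 to −0.48. Prdx1, at −0.26, turned to 0.044 with neither term and to 0.40 with only the Cy5 arrays. The cause was not tested. The alternatives other than the dye term were added for the lists after the data were seen.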

Other observations

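Outside the naming rule, and chosen after its values were seen, Aldh3a1 had the lowest effect of the conjugating and carbonyl-reducing enzymes. This aldehyde dehydrogenase scored −7.25, −7.84 and −7.97 on replicates 1 to 3 and −5.70 in the Cy3 profile (effect −6.77 ± 0.55 SD units, limma adjusted p = 0.0020). The export pumps of conjugates differed in the same list: Abcc3 fell with an effect of −2.92 ± 0.27 and Abcc2 with −1.30 ± 0.19 (adjusted p = 0.0030 and 0.014), whereas Abcc4 was positive in every profile at 1.27 ± 0.29 (adjusted p = 0.053). The aldehyde dehydrogenase gene Aldh7a1 was the list's only rise (1.03 ± 0.21, adjusted p = 0.037, and up to 0.094 without 1 replicate). The glutaredoxin gene Glrx was strongly negative on the Cy5 arrays, at −3.53, −3.81 and −3.32, and nearer 0 in the Cy3 profile, at −1.11 (effect −2.42 ± 0.57, adjusted p = 0.055).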
